A study of Litchi chinensis with 30 samples.

Results

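The step from developmental stage 2 to stage 3 was examined in functionally male flowers of litchi (Litchi chinensis), a tree whose flowers have sepals, stamens and a pistil of varying development but no petals. The members are the 6 libraries labelled male at these stages, 3 of stage 2 (M2) and 3 of stage 3 (M3), of 30 libraries in all. The whole series holds functionally female and functionally male flowers of the cultivar Feizixiao at 5 stages, with 3 libraries in each of the 10 groups. Stages 1 to 3 are buds of increasing size, stage 4 is partial bloom and stage 5 full bloom. No treatment, mutant or transgene distinguishes the groups, and M2 and M3 share sex, cultivar and organ. Whole flowers were sampled around the crown in the morning, so each library mixes sepals, anthers, filaments and the remnant of the pistil, and fewer cells of a type cannot be told apart from less RNA per cell. The sources do not say whether the libraries of a group came from separate trees. The p-values rest on the spread between libraries within groups, estimated over all 30, and may not cover the spread between trees.

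As background, an anther forms pollen mother cells inside several wall layers. The innermost layer, the tapetum, feeds the meiotic cells, supplies the enzymes that make sporopollenin, the polymer of the outer pollen wall (exine), and then breaks down while its remains coat the grain. Meiosis takes place inside a callose wall, which is later dissolved to release the microspores. The endothecium, an outer layer, thickens its walls before the anther opens. The filament elongates late. Genes of these programmes are well described in Arabidopsis thaliana and rice, and the roles given below come from those plants unless another is named.

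Total counts of the 6 libraries ranged from 31980786 to 38075360. Log2 CPM values (counts scaled to library size) correlated at 0.958 to 0.961 among the M2 libraries, 0.954 to 0.959 among the M3 libraries and 0.913 to 0.924 between the groups. The genes that mark floral organs were present at both stages: the mean FPKM (fragments scaled to transcript length and library size, as the authors computed it) of the AGAMOUS-type gene LcMADS65 was 46.2 in M2 and 87.3 in M3, and that of LcMADS50, annotated as the petunia protein PMADS 2, was 244 and 316. Of 37234 genes, 27854 passed the filter on low counts and were tested with edgeR's quasi-likelihood test. At a false discovery rate (FDR, Benjamini-Hochberg) below 0.01 with a 2-fold or larger difference, 1736 genes changed, 6.23% of those tested. Of these, 1048 rose, 3.76% of the tested genes, and 688 fell, 2.47%. Rises were also larger: 403 genes rose and 140 fell by at least 8-fold, and the median log2 fold change was 2.33 among risen and -1.60 among fallen genes. The 3 libraries of one stage lay wholly above those of the other for 1733 of the 1736 called genes, against 44.8% of all tested genes. The genes were called on these same libraries, so this separation follows largely from the choice and lends the calls no further weight. No count was found in any M2 library for 118 of the risen genes, or in any M3 library for 27 of the fallen ones.

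**Figure D1:**
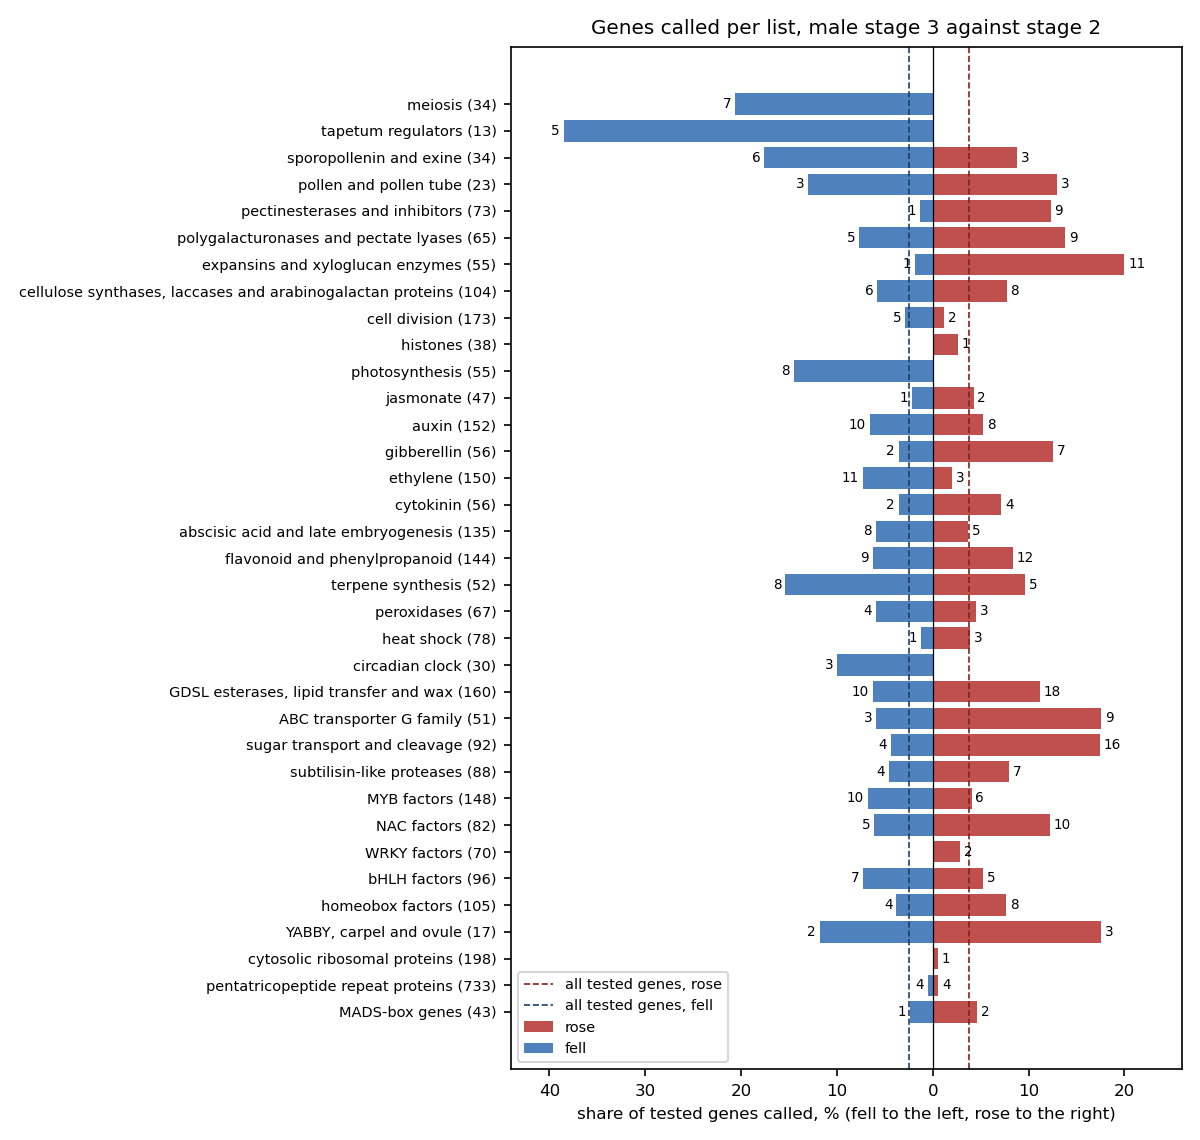
Share of tested genes called in each annotation list, in percent, for male stage 3 against stage 2. Bars to the right are risen genes, bars to the left fallen genes, the numbers are gene counts, the figure in parentheses is the number tested, and dashed lines give the share over all tested genes (3.76% rose, 2.47% fell). Tapetum regulators and meiosis genes lie on the fallen side with no risen gene, and expansins and xyloglucan enzymes, ABC transporters of the G family, sugar genes and the small list of YABBY, carpel and ovule genes (3 of 17) have the longest bars on the risen side.

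A minority of the genes annotated to meiosis and to the tapetum passed the test, and each of those fell. Among 34 tested genes annotated to meiosis, 7 fell and none rose, 20.6% against 2.47% of all tested genes, and the median log2 fold change of the list was -0.54 against 0.00 over all genes. DMC1 (LITCHI014887.m1), the recombinase that pairs homologous chromosomes, had FPKM of 5.15, 6.95 and 6.89 in the M2 libraries and 0.802, 0.866 and 0.985 in the M3 libraries. The groups did not overlap, and DMC1 fell 7.08-fold (log2 -2.82 ± 0.53 SE, edgeR FDR 0.000436). MALE MEIOCYTE DEATH 1 (LITCHI008090.m1), a PHD-finger regulator of male meiosis, fell from 3.51, 4.68 and 3.9 to 0.78, 0.684 and 0.543 FPKM (log2 -2.58 ± 0.36, edgeR FDR 1.71e-05). Its locus has 2 entries, whose summed counts gave the same log2 change of -2.58. The other fallen members, named after their values were seen, were the meiotic cohesin Sister chromatid cohesion 1 protein 1 (log2 -1.95), the crossover helicase DExH17 (-1.95), DYAD, which is needed for cohesion in meiosis (-1.92), and a pair of ASY1 genes, whose product forms the chromosome axis (-1.20 and -1.08). Between 5 and 6 of the 7 were called when any 1 of the 6 libraries was left out. The call of DYAD was lost in each of those 6 fits (edgeR FDR 0.011 to 0.0315), and that of the ASY1 gene LITCHI004666.m1 without M3-3, where its log2 change was -0.98.

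Of 13 tested entries for regulators of the tapetum, 5 fell and none rose. The fallen were 38.5% of the list, against 2.47% of all tested genes, and the list median log2 fold change was -1.06. A pair of genes annotated as MYB35, a factor required early in tapetum development, fell the most. LITCHI022244.m1 went from 25.5, 27.8 and 28.7 FPKM in M2 to 0.777, 1.65 and 1.4 in M3 (log2 -4.40 ± 0.78, edgeR FDR 0.000264). LITCHI017937.m1 went from 11.5, 11.8 and 11.5 to 0.724, 0.988 and 0.631 FPKM (log2 -3.87 ± 0.37, edgeR FDR 8.42e-08). MYB80 (LITCHI013621.m1), which acts later and controls genes of the pollen wall, fell from a mean of 6.29 ± 0.664 to 0.699 ± 0.196 FPKM (SD, n = 3 libraries), a log2 change of -3.16 ± 0.26. These 3 genes were called in every fit that left out 1 library. The remaining calls, an ABORTED MICROSPORES gene (LITCHI004937.m1, log2 -1.78) and TAPETUM DETERMINANT 1 (log2 -1.52), the ligand that specifies the tapetum, were each lost in all 6 such fits (edgeR FDR 0.0136 to 0.025 and 0.0126 to 0.0403), which left 3 of 13.

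Several abundant entries of the list did not pass the test. A further ABORTED MICROSPORES gene (LITCHI002043.m1), the bHLH factor at the centre of the tapetal programme, had 91.6, 106 and 94.5 FPKM in M2 and 41.3, 50.3 and 47.6 in M3 (log2 -1.06, edgeR FDR 0.0488). MALE STERILITY 1 (LITCHI005964.m1), a late tapetal regulator, had 16.5, 17.7 and 16.7 against 4.56, 6.56 and 6.83 FPKM (log2 -1.49, edgeR FDR 0.145). In both genes the groups did not overlap. The fit shares its estimate of spread with all 30 libraries, and in a fit of the 6 compared libraries alone both genes were called, with 7 of 13 fallen. SPOROCYTELESS, which starts the formation of the germ line, had a log2 change of -0.65 and the receptor kinase EMS1, the partner of TAPETUM DETERMINANT 1, one of -0.59, both not called. The bHLH91 entries had log2 changes of -0.63 to -0.13, and 3 of these 4 entries belong to 1 locus.

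The pollen wall list moved in both directions. Among 34 tested genes, 6 fell (17.6%) and 3 rose (8.82%), against 2.47% and 3.76% of all tested genes. Leaving out 1 library gave 5 fallen and 1 to 3 risen, with 1 risen without M2-1 or M2-3. In the fit of the 6 libraries alone 12 fell. In the main test 25 of the 34 were not called. The fallen genes included 3 enzymes of sporopollenin synthesis. Tetraketide alpha-pyrone reductase 1 (LITCHI002216.m1), which reduces a sporopollenin precursor, had 88.1, 88.3 and 87.3 FPKM in M2 and 13.9, 17.9 and 15.9 in M3 (log2 -2.46 ± 0.33, edgeR FDR 1.25e-05). Type III polyketide synthase A (LITCHI025403.m1), the enzyme before it in the pathway, went from 277, 323 and 284 to 42.3, 62.1 and 58 FPKM, with a log2 change of -2.44 ± 0.62. Its call (edgeR FDR 0.007) was lost in each fit without 1 library, where the FDR was 0.0153 to 0.0413. Tetraketide alpha-pyrone reductase 2 fell from 56 ± 3.46 to 13.7 ± 2.18 FPKM (SD, n = 3). Also fallen were a pair of genes for callose synthase 5, which lays down the callose around the meiotic cells (log2 -2.62 and -2.24), and STRICTOSIDINE SYNTHASE-LIKE 12 (-3.83, at 0.731 FPKM in M2). The callose synthase pair had means of 1.7 and 1.54 FPKM in M2 and 0.275 and 0.324 in M3. Both were higher in open flowers than in M2, at 4.57 and 3.96 in M4 and 8.96 and 6.53 in M5. The list name covers strictosidine synthase-like proteins, few of which have a known part in the pollen wall.

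Spermidine hydroxycinnamoyl transferase (LITCHI016420.m1), a tapetal enzyme that makes phenolic conjugates of the pollen coat, went the other way. It had 17.3, 30.3 and 23.1 FPKM in M2 and 204, 247 and 221 in M3, a rise of 9.51-fold (log2 3.25 ± 0.78, edgeR FDR 0.00415). The libraries of the 2 stages were far apart, but the call was lost without M2-1, M2-2, M2-3 or M3-2 (highest edgeR FDR 0.0277). Its level in the other male stages was low, with means of 0.176 FPKM in M1, 3.61 in M4 and 1.62 in M5. The other risen members were STRICTOSIDINE SYNTHASE-LIKE 2 (1.83 to 5.69 FPKM) and a Fatty acyl-CoA reductase 2 entry, an enzyme of the same pathway (log2 4.36), at 0.405 FPKM in M3, whose call was lost without M2-1 or M2-3.

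Of 51 tested ABC transporters of the G family, which export lipids and other wall materials, 9 rose (17.6%) and 3 fell (5.88%). Over all tested genes 3.76% rose and 2.47% fell. The transporters ABCG9 and ABCG31, which move sterol glycosides to the pollen coat, were among the risen. ABCG9 (LITCHI029253.m1) rose from 0.925, 2.01 and 1.4 to 27.8, 29.3 and 24.9 FPKM (log2 4.23 ± 0.60, edgeR FDR 2.04e-05). An ABCG31 gene (LITCHI025122.m1) rose from 1.23, 1.61 and 1.33 to 21.4, 22.4 and 19.4 FPKM (log2 3.92 ± 0.45, edgeR FDR 1.42e-06), its neighbour in the numbering, LITCHI025127.m1, from a mean of 1.46 to 12.1 FPKM, and LITCHI011802.m1, also annotated as ABCG31, from 0.378 to 0.96. The last call was lost in the fit of the 6 libraries alone (edgeR FDR 0.0124), where 7 of the list rose. ABCG36 rose from 5.28 to 28.1 FPKM. The risen ABCG15 entry LITCHI008823.m1 (log2 1.88) had 0.77 with the entries of its locus summed, under the 2-fold minimum. The call of the ABCG28 entry LITCHI024632.m2 (log2 1.83) was lost in 5 of 6 fits without 1 library. It was also lost in the fit of the 6 libraries alone (edgeR FDR 0.0249), though its summed entries rose (log2 2.07). ABCG11, a cuticle lipid transporter, fell from 8.58, 11 and 9.45 to 1.27, 1.66 and 1.05 FPKM (log2 -2.86 ± 0.40).

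**Figure D2:**
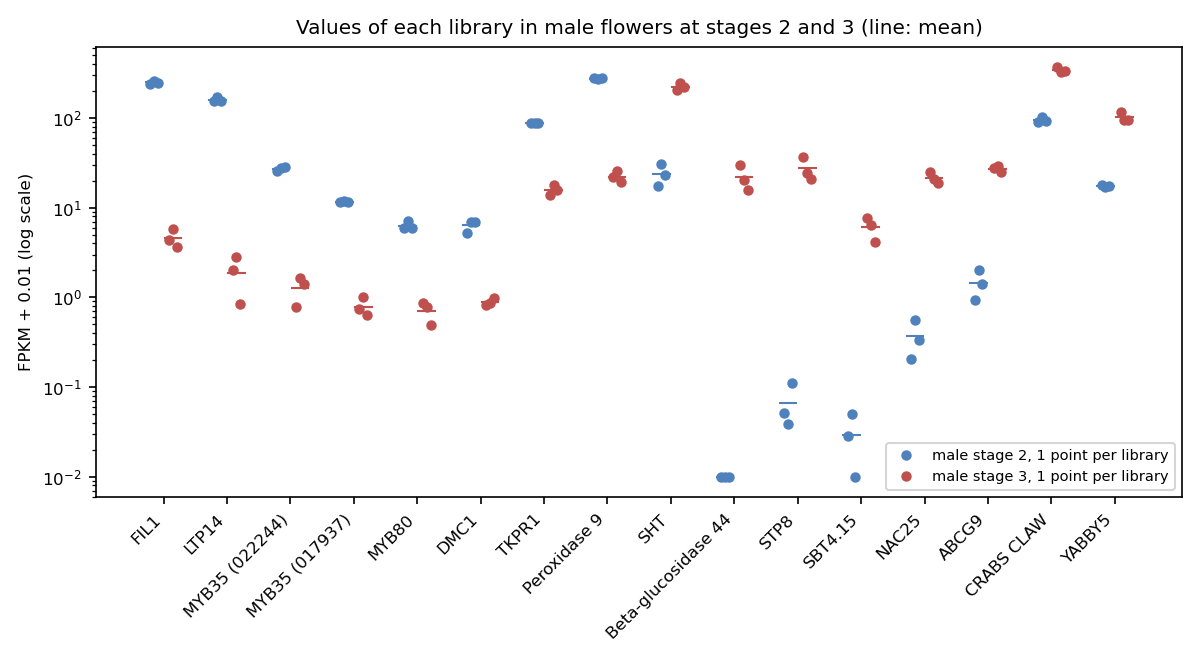
FPKM of 16 genes in each M2 (blue) and M3 (red) library, with 0.01 added and on a log scale. Points are libraries and short lines are means of 3. From FIL1 to peroxidase 9 every M2 library lies above every M3 library, and from SHT (spermidine hydroxycinnamoyl transferase) to YABBY5 every M3 library lies above every M2 library; beta-glucosidase 44 had no counts in M2.

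The 10 largest falls among genes of at least 10 CPM in M2 included, by annotation alone, a stamen-specific protein, lipid-transfer and wall proteins and a clock gene. The gene for Stamen-specific protein FIL1, named for a filament transcript of snapdragon, had 241, 261 and 248 FPKM in M2 and 4.33, 5.85 and 3.67 in M3 in its larger entry, LITCHI009297.m1 (log2 -5.75 ± 0.81, edgeR FDR 1.96e-05). Its smaller entry went from 57.6 to 0.387 FPKM, and the counts summed over both entries fell by 5.93 on the log2 scale. Non-specific lipid-transfer protein 14 (LITCHI009300.m1) fell from 154, 170 and 156 to 1.99, 2.82 and 0.835 FPKM (log2 -6.39 ± 0.95). A gene with no annotation, Litchi_chinensis_newGene_4461, fell from 341, 405 and 367 to 5.47, 7.29 and 4.15 FPKM (log2 -6.03 ± 0.64). The largest fall was that of a gene like histidine-containing phosphotransfer protein 4, a member of the cytokinin relay (LITCHI005736.m1). It had 27.4, 21.8 and 25.2 FPKM in M2 and 0.234, 0 and 0 in M3 (log2 -8.24 ± 1.20, edgeR FDR 2.81e-05). Also among the 10 were an alpha-mannosidase (52 to 1.11 FPKM), Fasciclin-like arabinogalactan protein 21, a cell-wall glycoprotein (73.9 to 1.77), an RSI-1 gene (43.4 to 0.907), a feruloyl CoA ortho-hydroxylase (29 to 0.842) and an entry annotated as EARLY FLOWERING 3, a clock protein (5.56 to 0.0825). At stage 1 some of these genes were low as well: FIL1 (LITCHI009297.m1) had 1.24, 0.487 and 0.71 FPKM and lipid-transfer protein 14 had 0.152, 0.0729 and 0.595. This FIL1 entry had means of 8.43 FPKM in M4 and 1.28 in M5, and 380 in female buds of stage 2. Which tissue expressed it was not tested.

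Genes with the largest rises encoded glycosidases, proteases and laccases. Beta-glucosidase 44 (LITCHI000395.m1), a wall glycosidase, had no counts in M2 and 30, 20.5 and 15.6 FPKM in M3, at least 1365-fold higher against a floor of 3 counts over the M2 group. On the same measure Fruit bromelain (LITCHI020625.m1), a cysteine protease, rose at least 904.7-fold, Phylloplanin, a secreted surface protein of tobacco leaves, at least 792.2-fold, the cysteine protease SAG39 (LITCHI020921.m1) at least 519.8-fold, the subtilisin-like protease SBT5.4 at least 494.3-fold and a lipid-transfer-like protein (LITCHI010436.m1) at least 450.5-fold. Their M3 means were 19, 21.2, 10.7, 5.88 and 11.9 FPKM. Laccases oxidise phenolics into wall polymers, and both genes annotated as Laccase-22 rose. LITCHI027514.m1 had 0.0299, 0 and 0 FPKM in M2 and 22.7, 15.5 and 15.2 in M3 (log2 10.19 ± 1.79), and LITCHI027518.m1 rose at least 696.3-fold to 7.33, 14.1 and 6.14 FPKM. A beta-xylosidase (LITCHI014057.m1) rose from 0, 0.044 and 0 to 15.9, 11 and 9.19 FPKM (log2 9.63 ± 1.21).

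A single entry with a still larger fitted rise, LITCHI028277.m1, had 0 FPKM in all M2 libraries and 37.5, 36.1 and 35.8 in M3. The other entry of this locus, annotated as beta-amyrin 28-oxidase, showed the reverse, with 9.27, 10.8 and 10.7 against 0.603, 0.487 and 0.431 FPKM. With the counts of both entries summed, an alternative chosen after seeing the data, the log2 change was -0.01 (edgeR FDR 0.949). The rise of the first entry therefore does not describe the locus.

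Lists of wall-loosening and pectin enzymes held more risen than fallen genes, as did all tested genes (3.76% risen, 2.47% fallen). The list of cellulose synthases, laccases and arabinogalactan proteins went both ways, with 8 risen (7.69%) and 6 fallen (5.77%) of 104 and a median of 0.04. Its summed level was 10500 to 10761 CPM in the M2 libraries and 8532.3 to 9009.9 in the M3 libraries. Among expansins and xyloglucan endotransglucosylases, which loosen walls, 11 of 55 rose (20%) and 1 fell (1.82%), or 2 to 3 fell without M2-3, M3-2 or M3-3. Xyloglucan endotransglucosylase/hydrolase protein 2 (LITCHI026926.m1) had 0.227, 0.284 and 0.183 FPKM in M2 and 30.3, 18.3 and 15.4 in M3 (log2 6.43 ± 0.91, edgeR FDR 2.15e-05). Expansin-B15 rose from 0.0715 to 10 FPKM, and Expansin-A8 was the fallen one (43.3 to 18.7 FPKM). Of 65 polygalacturonases and pectate lyases, which cut pectin, 9 rose (13.8%) and 5 fell (7.69%), both above the shares over all tested genes. Only 2 to 3 fell without M2-1, M2-2, M3-1 or M3-3. The risen Exopolygalacturonase (LITCHI026482.m1), of a type known from pollen, went from 0, 0.0322 and 0.0279 to 9.88, 6.67 and 4.94 FPKM (log2 7.81 ± 0.73, edgeR FDR 7.62e-08). Polygalacturonase inhibitor fell from 97.2 ± 11.5 to 39.2 ± 0.821 FPKM (SD, n = 3). Of 73 pectinesterases and inhibitors 9 rose (12.3%) and 1 fell (1.37%), but only 5 rose in the fit of the 6 libraries alone and 4 to 7 without 1 library, 4 of them without M2-3. Among them Pectinesterase inhibitor 10 rose from 3.11 to 13.5 FPKM (not called without M2-3) and pectinesterase 53 from 2.65 to 6.87. A list of glycosidases chosen after the values were seen, which has no weight of its own, held 19 risen and 8 fallen of 160.

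Sugar transport and cleavage genes rose in 16 of 92 cases (17.4%) and fell in 4 (4.35%), against 3.76% and 2.47% of all tested genes. Sugar transport protein 8 (LITCHI025064.m1), a hexose importer, rose from 0.0416, 0.0292 and 0.101 to 37, 24.1 and 21 FPKM (log2 8.62 ± 0.70, edgeR FDR 8.38e-09). A gene like NEC1 (LITCHI003451.m1), a SWEET exporter named from petunia nectaries, was at 0.179 FPKM in M2 and 5.02 in M3, and reached 654 at stage 4 and 1567 at stage 5. SWEET15 (LITCHI004599.m1) fell from 54.3, 71.8 and 59.6 to 13.7, 13.2 and 12.8 FPKM (log2 -2.22 ± 0.24). Subtilisin-like proteases gave 7 risen (7.95%) and 4 fallen (4.55%) of 88. SBT4.15 rose from 0.0188, 0.0399 and 0 to 7.6, 6.44 and 4.12 FPKM (log2 8.20 ± 0.67), and a pair of SBT2.6 genes fell, from 8.3 to 0.521 and from 3.92 to 0.317 FPKM. Of 160 GDSL esterases, lipid-transfer and wax genes 18 rose (11.2%) and 10 fell (6.25%).

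Some risen genes were higher at stage 1 than in M2. Among 23 genes annotated to pollen, 3 rose and 3 fell (13% each, against 3.76% and 2.47% of all tested genes), with 1 fallen without M3-1 or M3-3. A Major pollen allergen Ole e 6 gene (LITCHI014844.m1), named after seeing its values, had 12.7, 8.08 and 21.4 FPKM in stage 1, no counts in M2, 9.11, 6.7 and 4.78 FPKM in M3, and means of 148 and 166 at stages 4 and 5. SBT4.15 had 3.09, 3.65 and 10.9 FPKM at stage 1, and Late embryogenesis abundant protein 1 (LITCHI015173.m1), a desiccation protein, had means of 44.9 FPKM in M1, 0.832 in M2, 32.6 in M3 and 482 in M4. Over the 1048 risen genes, the numbers with a mean of at least 1 FPKM were 520, 474, 853, 894 and 758 from stage 1 to stage 5. Over all tested genes they were 20062, 20326, 20239, 19516 and 18129. The risen genes were chosen on M2, so their low count there is fixed by the choice. The fallen members of the pollen list were Pollen allergen Che a 1 (7.07 to 1.07 FPKM), INAPERTURATE POLLEN1, which shapes pollen apertures (2.3 to 0.37, not called without M3-1 or M3-3), and POLLENLESS 3, needed to leave meiosis (2.87 to 0.783, not called in any fit without 1 library).

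**Figure D3:**
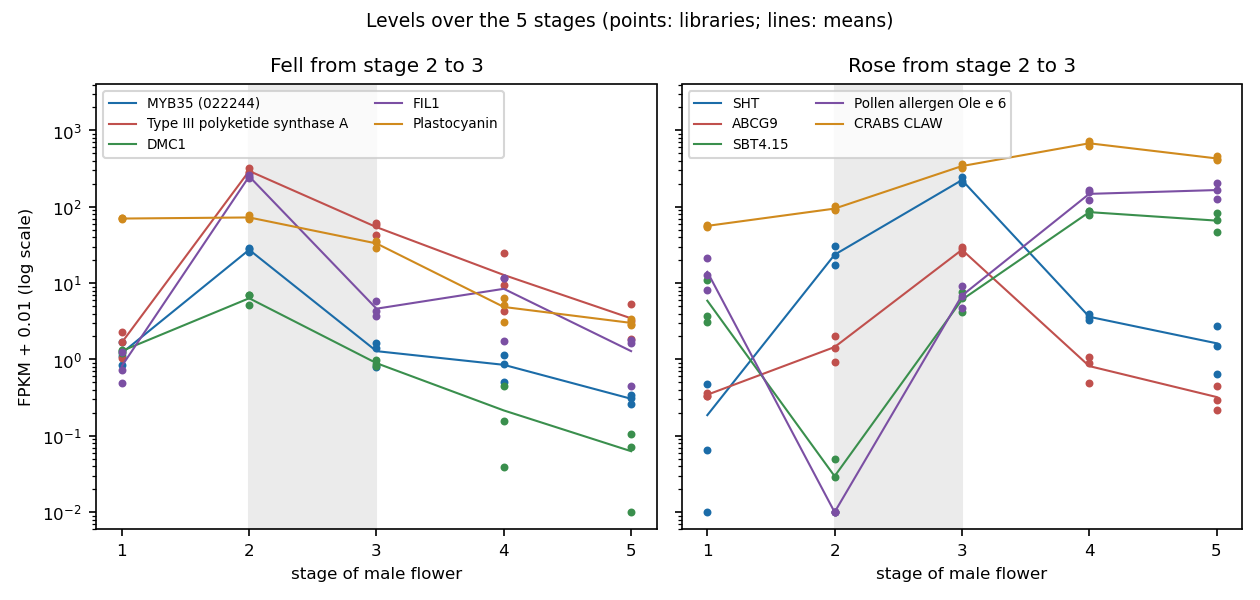
FPKM with 0.01 added, on a log scale, over the 5 stages of male flowers for 5 fallen and 5 risen genes. Points are libraries, lines join the means of 3, and grey marks the step from stage 2 to 3. MYB35, Type III polyketide synthase A, DMC1 and FIL1 were highest at stage 2, SHT and ABCG9 at stage 3, and SBT4.15 and pollen allergen Ole e 6 were at or near 0 at stage 2 and at means of 85.2 and 148 FPKM at stage 4.

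Levels over the 5 stages also separated the risen genes. SHT and ABCG9 were highest at stage 3 and fell back to means of 3.61 and 0.808 FPKM at stage 4, whereas CRABS CLAW, SBT4.15 and the Ole e 6 gene were higher at stage 4 than at stage 3. These comparisons share M2 or M3 libraries with the step described here and are given as levels without a test.

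Of 55 tested photosynthesis genes 8 fell (14.5%), none rose and 47 were not called, with a list median of -0.86. Over all tested genes 2.47% fell and 3.76% rose. Photosystem I subunit psaK (LITCHI028705.m1) had 33.6, 31.4 and 37.4 FPKM in M2 and 13, 10.9 and 14.1 in M3 (log2 -1.42 ± 0.23, edgeR FDR 0.000106), and a cytochrome b6-f subunit (LITCHI001720.m1) fell from 14.6 to 5.52. The other 6 were photosystem I subunits V and N, the photosystem II 22 kDa protein, plastocyanin (72.5 to 33.1 FPKM), CP29.2, which binds chlorophyll (105 to 49.2), and oxygen-evolving enhancer 3-2, with log2 changes of -1.33 to -1.03. The call of CP29.2 was lost in every fit without 1 library, under the replicate block (edgeR FDR 0.0124), with library size alone and with no filter (FDR 0.0104 in each). That of the oxygen-evolving enhancer was lost without M3-1, where its log2 change was -0.91. In the fit of the 6 libraries alone 14 photosynthesis genes fell.

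Secondary metabolism was mixed. Terpene synthesis, which makes volatile and other compounds, had 8 fallen (15.4%) and 5 risen (9.62%) of 52, against 2.47% and 3.76% over all tested genes. Its median, -1.19, was the lowest of the lists. Alpha-farnesene synthase LITCHI016232.m1 fell from 40.9, 38.7 and 44.4 to 7, 8.18 and 8.05 FPKM, and germacrene D synthase newGene_1310 from 3.46 to 0.374. Probable terpene synthase 11 rose from 0.544 to 5.9 FPKM and an (R)-limonene synthase entry (LITCHI029391.m1) from 1.24 to 7.9. The call of the latter was lost without M2-1, M2-2, M2-3 or M3-1 and in DESeq2, but the counts summed over the 3 entries of its locus rose (log2 2.24, edgeR FDR 3.34e-08). A further entry of this locus, LITCHI029391.m8 (log2 1.90), is also counted among the 5 risen. In the fit of the 6 libraries alone 15 terpene genes fell, whereas 4 to 5 fell without M2-2, M3-1, M3-2 or M3-3 and 3 rose without M2-2 or M3-1. Flavonoid and phenylpropanoid genes gave 12 risen (8.33%) and 9 fallen (6.25%) of 144, with 5 fallen without M2-1, M2-2 or M3-3. Leucoanthocyanidin reductase (LITCHI023217.m1), which makes catechins, fell from 453, 434 and 444 to 137, 135 and 121 FPKM (log2 -1.76 ± 0.26), while Flavonoid 3',5'-hydroxylase 1 rose from 1.39 to 24.5 (not called without M2-1) and an anthocyanidin reductase from 0.357 to 14.1. Peroxidase 9 (LITCHI010240.m1) fell from 276, 272 and 277 to 21.9, 25.5 and 19.2 FPKM (log2 -3.62 ± 0.31) and Peroxidase 40 from 25.8 to 1.98. Of 67 peroxidases 4 fell (5.97%) and 3 rose (4.48%). Peroxidase 5 rose from 3.06 to 24.2 FPKM.

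Among transcription factors, the NAC family had 10 risen (12.2%) and 5 fallen genes (6.1%) of 82, against 3.76% and 2.47% over all tested genes. It had 5 to 6 risen without M2-1, M2-3 or M3-1 and 3 fallen without M3-1. NAC43 (LITCHI026796.m1), known as a switch for secondary wall thickening in the endothecium, had 0, 0.0348 and 0 FPKM in M2 and 2.86, 1.77 and 1.55 in M3 (log2 7.40 ± 1.32, edgeR FDR 0.000275). NAC transcription factor 25 rose from 0.195, 0.556 and 0.327 to 24.9, 21.1 and 18.9 FPKM (log2 5.90 ± 0.65), and CUP-SHAPED COTYLEDON 2, which sets organ boundaries, fell from 8.58 to 1.77 (not called without M3-2). In the MYB family 10 fell (6.76%) and 6 rose (4.05%) of 148. The pair of MYB35 genes led the falls. MYB101, a factor of the pollen tube, rose from 2.1 to 17.7 FPKM (not called without M2-1 or M2-3), and 1 to 4 MYB genes rose without 1 library, with 1 risen without M2-1 or M2-3, 2 without M3-2 and 3 without M3-1 or M3-3. Homeobox genes gave 8 risen (7.62%) and 4 fallen (3.81%) of 105, with 5 risen without M2-3. WUSCHEL (LITCHI006478.m1), which maintains stem cells, rose from 3.96, 3.79 and 2.66 to 17.8, 13.9 and 15.3 FPKM (log2 2.18 ± 0.46, edgeR FDR 0.0014, but 0.0124 without M2-3), and MERISTEM L1, an epidermal factor, fell from 25.9 to 5.92. Of 96 bHLH genes 7 fell (7.29%) and 5 rose (5.21%), with bHLH67 falling from 14.5 to 3.82 FPKM. WRKY genes gave 2 risen and none fallen of 70, but 0 without M2-3, 1 without any other of the 6 libraries and 8 in the fit of the 6 libraries alone.

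Hormone lists had called genes in both directions, to be read against 3.76% risen and 2.47% fallen over all tested genes. Of 56 gibberellin genes 7 rose (12.5%) and 2 fell (3.57%), with 4 risen without M2-3. Members were matched by words in their descriptions, so the fallen RSI-1 gene (log2 -5.55) was not counted here. The GASA peptide Snakin-1 LITCHI010863.m1 rose from 2.08, 1.84 and 2.16 to 65.5, 47.4 and 56.6 FPKM (log2 4.80 ± 0.37), whereas the Snakin-1 gene newGene_3377 fell from 36.9 to 8.59. Of 152 auxin genes 8 rose (5.26%) and 10 fell (6.58%): the response repressors AUX22 and IAA14 rose from 5.35 to 31.2 and from 4.23 to 16.2 FPKM, and Auxin-binding protein ABP19a fell from 348 to 79.3. The auxin count was 5 risen without M2-2 and 6 fallen without M3-2 or M3-3. Of 150 ethylene genes 3 rose (2%) and 11 fell (7.33%), with 8 risen in the fit of the 6 libraries alone, 6 with DESeq2 and 1 without M2-1 and 6 to 7 fallen without any of the 6 libraries but M3-3, which left 8. A gene like 1-aminocyclopropane-1-carboxylate oxidase (LITCHI015352.m1) rose from 9.08, 18.4 and 15.6 to 256, 282 and 279 FPKM (log2 4.25 ± 0.76), and AIL1, an AP2-type growth factor in this list by its name, fell from 10.9 to 2.47. In the cytokinin list 4 of 56 rose (7.14%) and 2 fell (3.57%), with 1 fallen without M3-2 or M3-3. Among the risen were Cytokinin hydroxylase (0.0559 to 3.91 FPKM) and Cytokinin dehydrogenase 5, which degrades the hormone (5.26 to 17.7). The list did not hold the phosphotransfer gene of the cytokinin relay with the largest fall (LITCHI005736.m1, log2 -8.24). Abscisic acid and desiccation genes gave 5 risen (3.7%) and 8 fallen (5.93%) of 135, with 4 fallen without M3-1 and 8 risen with DESeq2. Jasmonate genes gave 2 risen (4.26%) and 1 fallen (2.13%) of 47, both close to the share over all genes, with 4 risen with DESeq2 and 1 risen without M2-2, M2-3, M3-1 or M3-3.

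Genes of the YABBY, carpel and ovule list were expressed in these male flowers. Which tissue expressed them was not tested. CRABS CLAW (LITCHI005346.m1), a YABBY factor of carpels and nectaries, had 89.5, 102 and 92.6 FPKM in M2 and 366, 325 and 334 in M3, a rise of 3.61-fold (log2 1.85 ± 0.15, edgeR FDR 1.17e-08). YABBY5 (LITCHI016604.m1) rose from 17.7, 16.9 and 17.4 to 118, 93.9 and 95.8 FPKM (log2 2.57 ± 0.24), and 2.52 with the 4 entries of its locus summed. The BEL1 homolog, an ovule factor, rose from 1.72 to 5.38. A pair of YABBY1 genes fell, from 25.1 to 7.96 and from 34.1 to 16.6 FPKM, but none of this pair was called without M2-2, M3-1 or M3-3 and 1 without M2-1, M2-3 or M3-2. This list thus had 3 risen (17.6%) and 2 fallen (11.8%) of 17, against 3.76% and 2.47% of all tested genes. The ovule gene LcMADS51 (AGL11 type), at 2.25 and 2.85 FPKM, was not called.

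MADS-box genes include the family members that specify floral organs. The table held 95, of which 43 were tested, 2 rose (4.65%) and 1 fell (2.33%), close to the shares over all tested genes. Only 1 rose without M2-1, M2-2, M2-3, M3-1 or M3-2, and none fell without any 1 of the 6 libraries. LcMADS85 (LITCHI020322.m1) rose from 1.83, 2.21 and 1.98 to 7.95, 7.24 and 9.36 FPKM (log2 2.02 ± 0.24, edgeR FDR 2.09e-06) and was called in every fit without 1 library. LcMADS43 (LITCHI009242.m2) went from 6.69, 5.83 and 4.38 to 0.0364, 0.0234 and 0.123 FPKM (log2 -6.16 ± 1.47, edgeR FDR 0.00786), a call lost in every fit without 1 library (edgeR FDR 0.015 to 0.0417) and under the replicate block (FDR 0.0101). The other entry of its locus had 13.2, 9.31 and 11.1 FPKM in M2 and 6.55, 8.01 and 6.74 in M3, and the summed counts fell by 1.30 on the log2 scale. LcMADS37, a type I gene, had no counts in M2 and 0.484, 0.216 and 0.0782 FPKM in M3, at least 6.62-fold higher. Its call (edgeR FDR 0.00872) was lost under the replicate block (FDR 0.0149) and without M2-1, M2-2, M2-3, M3-1 or M3-2.

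LcMADS43 and LcMADS85 both carry the annotation MADS-box transcription factor 6, so the first 180 bases of their coding sequences, which include most of the MADS box, are shown to tell them apart. They come from the study's gene list, run 5′ to 3′ from the start codon, and capitals mark bases that differ between the pair.
LcMADS43: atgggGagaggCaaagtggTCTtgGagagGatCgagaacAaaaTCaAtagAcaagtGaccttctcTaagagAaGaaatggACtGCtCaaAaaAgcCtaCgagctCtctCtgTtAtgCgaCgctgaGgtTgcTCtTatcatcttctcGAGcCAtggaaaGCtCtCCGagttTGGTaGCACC
LcMADS85: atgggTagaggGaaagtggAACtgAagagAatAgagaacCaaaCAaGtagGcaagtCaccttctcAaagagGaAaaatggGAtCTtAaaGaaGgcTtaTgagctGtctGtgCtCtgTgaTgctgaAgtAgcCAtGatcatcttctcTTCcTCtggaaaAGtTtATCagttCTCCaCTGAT
The pair shares 123 of these 180 bases (68.3%) without gaps.

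The 11 genes of the floral organ identity model (ABCDE) were not called. LcMADS75 and LcMADS65 came closest in fold change. LcMADS75 (DEFICIENS type, for petals and stamens) had 107, 109 and 107 FPKM in M2 and 214, 197 and 199 in M3 (log2 0.93 ± 0.13, edgeR FDR 2.04e-05) and LcMADS65 (AGAMOUS type, for stamens and carpels) 46.8, 45.3 and 46.5 against 92.4, 84.6 and 84.9 (log2 0.92 ± 0.13, edgeR FDR 1.24e-05). Both passed the FDR but not the 2-fold minimum. The second DEFICIENS-type gene, LcMADS45, had 31.5 and 18.4 FPKM (log2 -0.77 ± 0.19, edgeR FDR 0.00615). LcMADS95 (APETALA1 type) had 125 at both stages, and LcMADS91 (SEPALLATA type) 210 and 227. The other 6 had log2 changes of 0.34 to 0.73. Among them LcMADS73 (SEPALLATA type) also passed the FDR but not the 2-fold minimum (log2 0.55 ± 0.10, edgeR FDR 0.000521).

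Ribosomal, pentatricopeptide repeat, cell division, histone, heat shock and clock genes are given by their counts. Over all tested genes 3.76% rose and 2.47% fell. Of 198 cytosolic ribosomal protein genes 1 rose, not called without M2-1, M2-2, M2-3 or M3-1, and none fell, and of 733 pentatricopeptide repeat genes 4 rose and 4 fell (0.546% each), with 9 fallen in the fit of the 6 libraries alone and 10 risen and 11 fallen with DESeq2. Of 173 cell division genes 2 rose and 5 fell (1 rose without M3-1, and 3 fell without M3-3), with Cyclin-D6-1 falling from 6.47 to 0.606 FPKM and Cyclin-D3-1 from 24.3 to 10.4 (not called without M3-3, edgeR FDR 0.0123). Of 38 histone genes 1 rose, and of 78 heat shock genes 3 rose and 1 fell (2 fell without M2-1, M3-2 or M3-3), led by an 18.2 kDa class I heat shock protein (5.35 to 26.2 FPKM). Of 30 clock genes 3 fell (10%), EARLY FLOWERING 3 among them, and 1 without M3-3, with a list median of -0.40. REVEILLE 1 went from 13.3 to 4.3 FPKM, a call lost in every fit without 1 library (edgeR FDR 0.0103 to 0.0354).

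The same step in female flowers, from 3 libraries of stage 2 (F2) and 3 of stage 3 (F3) that share no library with the male step, was set beside it. There 427 genes rose (1.53% of those tested) and 272 fell (0.977%). Of the 1048 genes that rose in male flowers 381 also rose in female flowers, of the 688 that fell 212 also fell, and no gene called in both went in opposite directions. The F2 libraries were less alike (0.922 to 0.948) than those of M2. Auxin-binding protein ABP19a had 349, 254 and 58 FPKM in F2 and a mean of 73 in F3. ABCG36 had 1.35, 6.21 and 12.4 in F2 and a mean of 17.4 in F3. FIL1 (LITCHI009297.m1) was more even in F2, at 373, 416 and 352. Whether the spread within F2 lowered the female changes and counts was not tested. The male-called genes had median log2 changes of 1.37 (risen) and -1.08 (fallen) in female flowers against 2.33 and -1.60 in male flowers, but they were chosen on the male values. Side by side, DMC1 had log2 changes of -2.82 in male and -2.82 in female flowers, peroxidase 9 of -3.62 and -3.31, and CRABS CLAW of 1.85 and 1.35. MYB35 LITCHI022244.m1 had -4.40 and -1.68 and MYB80 -3.16 and -1.36, whereas the other MYB35 gene, LITCHI017937.m1, had -3.87 and -3.40. Beta-glucosidase 44 had 13.45 and 7.21, values that depend on the fit because M2 was at 0.

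An interaction term tested whether male and female flowers differed in this step. Only 3 genes were called, 0.0108% of those tested, all with the larger rise in male flowers, while 2684 genes had an unadjusted p under 0.05. An uncharacterized gene (LITCHI026473.m1) had 4.56, 4.17 and 4.48 FPKM in M2 and 24.7, 19.6 and 22 in M3, and means of 10.9 and 21.9 in F2 and F3. An acyl-carrier-protein desaturase, an enzyme of fatty acid synthesis (LITCHI004163.m1), had 2.61, 3.29 and 2.29 against 19.1, 14.4 and 13.2 in male flowers, and means of 6.55 and 11.7 in female flowers. In both, the male flowers started lower at stage 2. SAG39 (LITCHI029054.m1), a cysteine protease outside the naming rule and named after its values were seen, went from 0.242, 0.441 and 0.327 to 6.42, 4.76 and 4.66 FPKM in male flowers, and had means of 0.517 and 0.499 in female flowers. The count of called interactions depended on the library left out: it was 65 without F2-1, 10 without F2-3 and 0 to 2 without any other library, and DESeq2 called 138. MYB80, at an interaction FDR of 0.0286, was not called, nor was MYB35 LITCHI022244.m1.

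**Figure D4:**
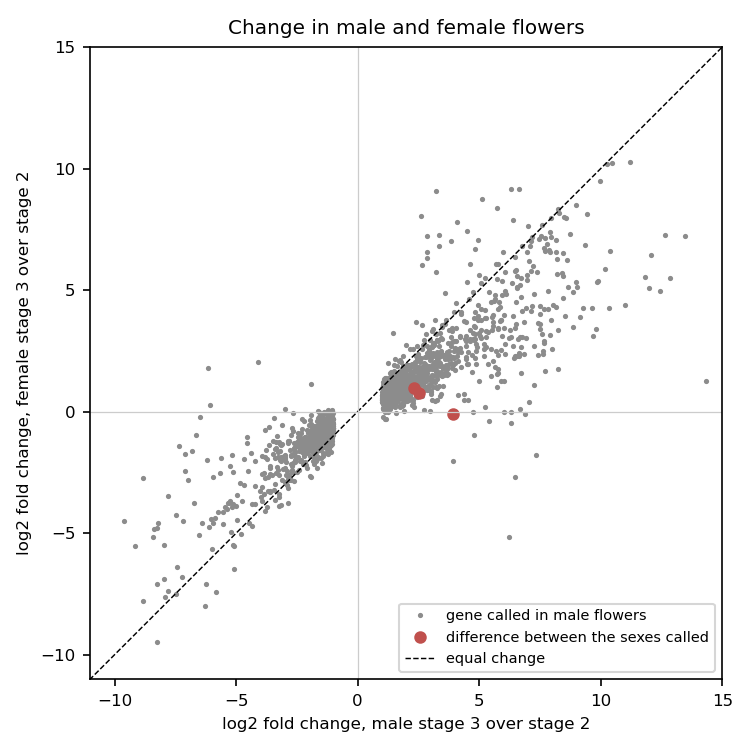
Log2 fold change of stage 3 over stage 2 in male flowers (horizontal axis) and in female flowers (vertical axis) for the 1736 genes called in male flowers. Each point is a gene, red marks the 3 genes whose difference between the sexes was called, and the dashed line marks equal change. Of these genes 1710 have the same sign in both sexes, and the median of the risen genes is 2.33 on the male and 1.37 on the female axis.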

How the data were processed

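RNA of whole flowers was sequenced as Illumina paired ends. Per the submitters' processing notes, HISAT2 2.0.4 and StringTie were used; the genome build is not given in the sources used here. The authors deposited raw counts per gene and FPKM for each library, and the deposited log2 fold changes and adjusted p-values, which the file headers name as DESeq2 comparisons between pairs of groups, were not used.

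Counts were tested with edgeR 4.0.16 (R 4.3.3; quasi-likelihood, TMM scaling, default filter) over all 30 libraries with 1 mean per group. Genes at an FDR under 0.01 and a fold of at least 2 were called. FPKM gives levels only. Total counts limit low genes most: of 37234 genes 9380 were removed by the filter. The scripts were tested on simulated data. Alternatives were other scalings, filters and sample sets, a replicate block, DESeq2 1.42.0, and leaving out each library.

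The comparison and gene lists were chosen with earlier results of these data known, and name patterns of lists were corrected from annotations alone. Named genes were, per list, up to 2 called genes a direction with the largest fold, where the higher group averaged 5 CPM or more; the 10 largest falls and rises at 10 or more with no overlap of libraries; up to 3 called interactions a direction at 10 or more; and all called MADS-box and the 11 organ identity genes. Others were named after their values were seen. Some loci have several entries, which can share reads, so single entries are uncertain (141 called genes).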

Additional observations from a re-analysis of the deposited data

Results flagged for a closer look

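In the main fit, the change from stage 2 to 3 differed between male and female flowers for 3 genes by a test of the difference itself. None of the 3 was called without M2-1. The fit of the compared groups alone also called 3 genes, but 2 had a positive and 1 a negative male minus female difference. The log2 difference, male minus female, was 1.37 ± 0.21 (SE, edgeR FDR 0.00795) for the uncharacterized gene LITCHI026473.m1, whose log2 change was 2.33 in male and 0.96 in female flowers. It was 1.73 ± 0.23 (edgeR FDR 0.00139) for the acyl-carrier-protein desaturase LITCHI004163.m1, with 2.51 and 0.78. For SAG39 (LITCHI029054.m1) it was 4.04 ± 0.62 (edgeR FDR 0.00716), with 3.93 and -0.11, and the stage 1 male libraries had a mean of 11.5 FPKM.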

How the results depend on the processing

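The count of genes changed in male flowers, 1736, was 3311 with no fold minimum and 1311 to 1470 without 1 library. It lay between 1389 and 1968 under the other edgeR settings and was 2334 (1336 risen, 998 fallen) with DESeq2. The called differences between the sexes, 3, became 7 with no fold minimum, 6 at 5 CPM in 3 libraries, 1 with the replicate block, 7 without the M1 libraries (chosen after seeing the data), 138 with DESeq2, and 0 to 65 without 1 library. The cause was not tested. Same-numbered libraries showed no shared deviation from their group means, with correlations of -0.0078, -0.0314 and -0.0627. With 3 libraries per group these values cannot tell whether such libraries came from the same tree or collection. The block gave 1663 changed genes. Summing entries of a locus, also chosen after seeing the data, reversed LITCHI028277.m1 to -0.01 and left LITCHI008823.m1 at 0.77. Of 166 called named genes 123 were called under every setting other than those chosen after seeing the data. Among list counts not given with the results, 5 peroxidases rose (3 in the main test), 2 pectinesterases, 3 expansins and 3 heat shock genes fell (1 each in the main test) in the fit of the compared groups, and with DESeq2 11 subtilisin-like proteases rose (7) and 8 homeobox genes fell (4). Depth limits genes with few reads.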
